A study of Homo sapiens with 6 samples.

Results

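Transcripts of 10 genes that ERK signaling is known to induce were followed in HCC2814 cells with and without MLST8. The genes encode the MAP kinase phosphatases DUSP4, DUSP5 and DUSP6, the Sprouty proteins SPRY1, SPRY2 and SPRY4, the Sprouty-related proteins SPRED1 and SPRED2, and the ETS factors ETV4 and ETV5. They were taken by symbol, and all 10 were found among the 17448 genes of the expression table. All 10 also passed the filter on low counts that left 12951 genes for testing. HCC2814 is a human lung squamous cell carcinoma (LUSC) line. RNA-seq covered 3 WT samples, which carried the non-targeting guide sgCtrl, and 3 MLST8-KO samples, which carried a guide against MLST8, a subunit of the mTOR complexes. Replicates came from independent experiments, the cells were grown in DMEM with fetal bovine serum, and no stimulus or ERK pathway inhibitor is named for either group. Both groups were made with lentiviral CRISPR vectors and antibiotic selection, and whether the MLST8-KO cells were 1 clone or a mixed population is not given in the sources used here. It is not given either whether the samples of a group carried the same guide, so the spread between replicates may include differences between guides.

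ERK is the last kinase of the RAS-RAF-MEK-ERK cascade, which carries signals from growth factor receptors to the nucleus. Active ERK switches on genes whose products shut the cascade down again, so their transcripts are widely used as a readout of ERK output. DUSP proteins remove the activating phosphates from MAP kinases, Sprouty and SPRED proteins act between receptors, RAS and RAF, and the PEA3 factors ETV4 and ETV5 carry the signal on as transcription factors. The repressor CIC is known to hold many of the same genes silent until ERK inactivates it. These are background facts, and neither ERK phosphorylation nor protein was measured in these libraries.

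In MLST8-KO cells the 10 genes did not move in 1 direction. DUSP4, DUSP5 and SPRY4 were lower, SPRY1 and SPRED1 were higher, and DUSP6, SPRY2, SPRED2, ETV4 and ETV5 did not pass the threshold (an adjusted p under 0.05 by edgeR, quasi-likelihood, corrected over all 12951 genes after Benjamini and Hochberg). Groups did not overlap in CPM for 4 of the 10 genes, against 49.1% of all genes tested. Thus 3 of 10 genes were lower where 15.7% of all genes tested were, and 2 of 10 were higher where 16.3% of all genes tested were. The median log2 fold change over the 10 genes was -0.15, against 0.00451 over all genes tested. The changes of DUSP5, SPRY4 and SPRED1 stayed past the threshold in each of the 6 fits that left out 1 library, whereas those of DUSP4 and SPRY1 did not.

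Read totals lay between 14381673 and 15744154 estimated counts per library, and 3 counts, the most that a count of 0 allows, correspond to 0.209 CPM in the shallowest one (counting error only). MLST8 itself was at 58.6 ± 1.97 CPM in WT cells and 30.03 ± 7.65 CPM in MLST8-KO cells (SD, n = 3 each), so its transcript was reduced but present. MLST8-KO replicates 1, 2 and 3 were at 25.5, 38.9 and 25.7 CPM, so replicate 2 kept the most. The paper's blots of this line report lower AKT phosphorylation and disrupted binding of mTOR to RICTOR with MLST8 lost. Epithelial and squamous markers were abundant in every library, with 1769 to 2998 counts of CDH1 and 61040 to 127961 of KRT5. The immune marker PTPRC had 0 or 1 count, the endothelial marker CDH5 0 or 1 and the fibroblast marker PDGFRB 0 to 2. Other markers of these lists were present, with 625 to 1079 counts of CD68 (immune), 20 to 35 of VWF (endothelial) and 435 to 548 of COL1A1 (fibroblast). Summed over 8 liver markers, MLST8-KO replicate 1 held 3728 counts and the other libraries 8 to 98. Of 12 epithelial and squamous markers, 8 were higher and 2 lower in MLST8-KO cells, against 16.3% and 15.7% of all genes tested. The 2 lower ones were the keratin genes KRT8 (log2 fold change -0.47) and KRT18 (-0.86). The sum of the 12 markers was 14969 to 22047 CPM in WT libraries and 25089 to 28110 CPM in MLST8-KO libraries. The part of these differences in the results below was not tested.

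For 6 of the 10 genes RefSeq promoter windows (GRCh38.p14, from 250 bases before to 50 bases after an annotated start) were at hand, 10 windows in all. DUSP4, DUSP5, ETV4 and ETV5 had no entry. The windows of 3 genes are shown because they stand for the 3 kinds of result described here: SPRY4, which was lower, SPRED1, which was higher, and DUSP6, whose call changed with the tool, the replicate block and 1 WT library. Capitals mark matches, on either strand, to any of the motifs searched.
SPRY4 promoter (chr5:142324198-142324497, minus strand): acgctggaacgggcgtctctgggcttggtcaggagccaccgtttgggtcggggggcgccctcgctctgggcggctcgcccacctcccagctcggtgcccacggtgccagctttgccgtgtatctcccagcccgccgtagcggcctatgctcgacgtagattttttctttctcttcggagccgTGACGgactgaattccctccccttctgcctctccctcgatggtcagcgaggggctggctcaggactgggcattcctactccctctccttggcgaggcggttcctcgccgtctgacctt
SPRED1 promoter (chr15:38252586-38252885, plus strand): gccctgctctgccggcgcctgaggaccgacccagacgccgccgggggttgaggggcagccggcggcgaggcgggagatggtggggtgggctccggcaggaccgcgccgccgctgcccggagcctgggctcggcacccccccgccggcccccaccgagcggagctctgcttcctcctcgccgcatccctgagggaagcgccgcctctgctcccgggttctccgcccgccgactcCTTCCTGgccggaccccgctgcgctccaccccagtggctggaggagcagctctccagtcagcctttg
DUSP6 promoter (chr12:89352452-89352751, minus strand): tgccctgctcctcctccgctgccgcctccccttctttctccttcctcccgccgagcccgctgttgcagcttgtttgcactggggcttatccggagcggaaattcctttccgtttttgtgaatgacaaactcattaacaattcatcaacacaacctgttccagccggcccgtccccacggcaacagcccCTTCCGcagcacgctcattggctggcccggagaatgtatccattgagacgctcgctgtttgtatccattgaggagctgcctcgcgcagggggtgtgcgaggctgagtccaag
The motifs searched were the ETS sites CGGAAG and CAGGAAG, the AP-1 site TGAGTCA, the cyclic AMP response element TGACGTCA and its shorter form TGACG, which lies inside it, and the CIC octamers TGAATGAA and TGAATGGA. The DUSP6 window held CGGAAG, on the strand opposite to the printed letters, at position -62 from the start. The SPRED1 window held CAGGAAG, also opposite to the printed letters, at -17, and the SPRY4 window the short element TGACG, as printed, at -68. CGGAAG stood in 3 of the 10 windows and in 19.5% of 35116 promoter windows of all genes, CAGGAAG in 4 windows and in 12.7% of all windows, and TGACG in 3 windows and in 24.6% of all windows. The AP-1 site was in 1 window, of SPRED2, and in 4.95% of all windows. None of the 10 windows held TGACGTCA (1.85% of all windows), TGAATGAA (1.65%) or TGAATGGA (1.03%). These matches describe the letters of the windows and were not set against any measured binding.

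Where 3 values of a group are given in a row, they belong to replicates 1, 2 and 3 in that order. Levels of different genes are compared in TPM, which the authors scaled by gene length. In WT cells ETV4 was the most abundant of the 10 transcripts at 66.5 ± 8.21 TPM (SD, n = 3), followed by DUSP6 at 55.6 ± 11.4, SPRY4 at 43.8 ± 11.0 and SPRED2 at 39.7 ± 1.16 TPM. Each of these overlapped its neighbour in the order across the 3 WT libraries. ETV5 at 25.2 ± 3.85 TPM and DUSP5 at 16.6 ± 1.16 TPM each stood apart from the genes above and below them. SPRY2 at 6.51 ± 0.600 and SPRED1 at 6.01 ± 0.588 TPM overlapped, as did DUSP4 at 1.23 ± 0.467 and SPRY1 at 0.860 ± 0.308 TPM, the scarcest of the set. In MLST8-KO cells ETV4 was again the most abundant at 71.3 ± 1.36 TPM, and DUSP6 followed at 46.4 ± 2.64 TPM. SPRED2 (41.6 ± 4.35 TPM) now lay above SPRY4 (25.4 ± 4.62 TPM) without overlap, and SPRY4 overlapped ETV5 (23.4 ± 2.08 TPM). SPRED1 (9.43 ± 1.35 TPM) overlapped both DUSP5 (9.48 ± 0.186 TPM) and SPRY2 (8.087 ± 0.9752 TPM), which did not overlap each other. SPRY1 (1.74 ± 0.461 TPM) lay above DUSP4 (0.647 ± 0.206 TPM) without overlap.

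**Figure D1:**
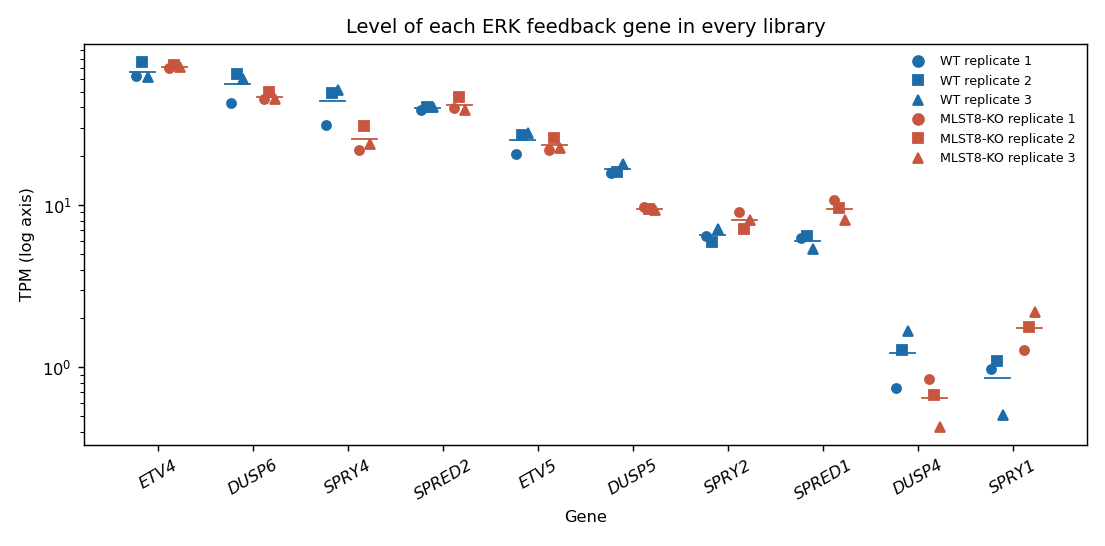
Level of each gene in TPM (log axis) in the 3 WT libraries (blue) and the 3 MLST8-KO libraries (red). Points are libraries, with a shape for each replicate number, and bars are group means. DUSP5 and SPRY4 were lower and SPRED1 and SPRY1 higher in MLST8-KO cells without overlap. In TPM, WT replicate 1 lay below the other WT libraries for DUSP4, DUSP5, DUSP6, SPRY4, SPRED2 and ETV5.

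DUSP5 (Entrez gene 1847; chromosome 10, 110497838 to 110511544 in GRCh38, plus strand) encodes a nuclear phosphatase that acts on ERK and anchors it there. WT libraries were at 20.8, 21.1 and 24.5 CPM, MLST8-KO libraries at 11.9, 11.4 and 11.9 CPM. Every MLST8-KO library lay below every WT library, which was so for 24.2% of all genes tested. The log2 fold change was -0.92 (standard error 0.11, 95% interval -1.16 to -0.67, adjusted p = 0.00281 by edgeR), or 1.89-fold lower. Leaving out 1 library gave -0.96 to -0.84, and the highest adjusted p by edgeR was 0.0210.

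DUSP4 (Entrez gene 1846; chromosome 8, 29333064 to 29350668, minus strand), another nuclear MAP kinase phosphatase, was scarce. WT libraries held 34, 56 and 73 estimated counts of it, MLST8-KO libraries 37, 30 and 20. The groups overlapped, since WT replicate 1 (2.26 CPM) lay below MLST8-KO replicate 1 (2.39 CPM). The log2 fold change was -1.03 (standard error 0.33, 95% interval -1.77 to -0.30, adjusted p = 0.0377 by edgeR). The call was lost without WT replicate 2 (adjusted p = 0.101 by edgeR), WT replicate 3 (0.112), MLST8-KO replicate 1 (0.0571), 2 (0.104) or 3 (0.127). It was also lost with the replicate number as a block (adjusted p = 0.0567 by edgeR) and with limma on log2(TPM + 1) (0.0822) or log2(TPM + 0.1) (0.0875). Without WT replicate 1 it held at -1.30 (adjusted p = 0.00290 by edgeR).

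DUSP6 (Entrez gene 1848; chromosome 12, 89347232 to 89353271, minus strand) encodes the cytoplasmic ERK phosphatase whose transcript is a common readout of ERK output. Its window is the last of those printed above. WT libraries stood at 76.5, 114 and 111 CPM, MLST8-KO libraries at 75.0, 81.2 and 78.4 CPM. WT replicate 1 therefore lay among the MLST8-KO libraries and the other WT libraries above all of them. The log2 fold change was -0.36 (standard error 0.14, 95% interval -0.66 to -0.06, adjusted p = 0.0637 by edgeR). Without WT replicate 1 it was -0.52 (standard error 0.09, adjusted p = 0.000557 by edgeR), while without any other library the adjusted p lay between 0.125 and 0.231. With all 6 libraries DUSP6 passed the threshold with DESeq2 (-0.37, adjusted p = 0.0339) and with the replicate number as a block in edgeR (-0.34, adjusted p = 0.0360). Of the summed TPM of DUSP4, DUSP5 and DUSP6, the DUSP5 share was 26.6%, 19.7% and 22.5% in WT libraries, but 17.5%, 15.8% and 17.02% in MLST8-KO libraries, and that of DUSP6 was higher in each MLST8-KO library than in any WT library.

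SPRY4 (Entrez gene 81848; chromosome 5, 142310427 to 142326455, minus strand) encodes a membrane-associated inhibitor of receptor signaling to RAS and RAF. It was measured at 83.6, 132 and 143 CPM in WT libraries, but at 54.4, 75.05 and 61.4 CPM in MLST8-KO libraries. The groups did not overlap, although WT replicate 1 lay nearer to MLST8-KO replicate 2 than to the other WT libraries. This was a log2 fold change of -0.91 (standard error 0.18, 95% interval -1.32 to -0.50, adjusted p = 0.00699 by edgeR), or 1.88-fold lower. It was -1.11 without WT replicate 1 and -1.04 to -0.76 without any other library, and the highest adjusted p by edgeR was 0.0367, without MLST8-KO replicate 1.

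SPRY1 (Entrez gene 10252; chromosome 4, 123396795 to 123403760, plus strand), of the same family, had 18, 21 and 11 estimated counts in WT libraries, while MLST8-KO libraries had 26, 32 and 45. All MLST8-KO libraries lay above all WT libraries, as in 24.8% of all genes tested. The log2 fold change was 0.92 (standard error 0.32, 95% interval 0.22 to 1.62, adjusted p = 0.0479 by edgeR). None of the 6 fits that left out 1 library kept this call: the adjusted p by edgeR was 0.0550, 0.0729 and 0.132 without WT replicates 1, 2 and 3 and 0.0644, 0.0905 and 0.166 without MLST8-KO replicates 1, 2 and 3. With all 6 libraries it was also lost with DESeq2 (0.92, adjusted p = 0.110), without the filter on low counts (0.0548 by edgeR) and with the replicate block (0.0673).

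SPRY2 (Entrez gene 10253; chromosome 13, 80335976 to 80340951, minus strand) stood at 7.56, 6.95 and 8.73 CPM in WT libraries and 9.999, 7.54 and 9.28 CPM in MLST8-KO libraries. The groups overlapped, and the log2 fold change was 0.21 (95% interval -0.15 to 0.56, adjusted p = 0.339 by edgeR). SPRY4 thus made up a smaller part of the Sprouty transcripts in MLST8-KO cells. Of the summed TPM of SPRY1, SPRY2 and SPRY4, SPRY4 held 80.7%, 87.5% and 87.0% in WT libraries, but 67.9%, 77.5% and 69.7% in MLST8-KO libraries. The SPRY2 share was 13.1 ± 3.25% in WT cells, against 23.3 ± 5.10% without MLST8 (SD, n = 3 each). Such shares within a library do not depend on how libraries are scaled.

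SPRED1 (Entrez gene 161742; chromosome 15, 38252326 to 38357249, plus strand) encodes the protein that brings the RAS inhibitor neurofibromin to the membrane. Its level was 25.7, 26.3 and 23.2 CPM in WT libraries, but 40.9, 35.8 and 32.3 CPM in MLST8-KO libraries. Every MLST8-KO library lay above every WT library. On the log2 scale the fold change was 0.54 (standard error 0.11, 95% interval 0.29 to 0.78, adjusted p = 0.00718 by edgeR), or 1.45-fold higher. Leaving out 1 library gave 0.44 to 0.61, and the highest adjusted p by edgeR was 0.0402, without MLST8-KO replicate 1.

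SPRED2 (Entrez gene 200734; chromosome 2, 65310851 to 65432637, minus strand), which acts in the same way, was at 88.3, 92.1 and 95.5 CPM in WT libraries, with 83.3, 95.8 and 82.9 CPM in MLST8-KO libraries. The groups overlapped. Its log2 fold change was -0.07 (95% interval -0.26 to 0.11, adjusted p = 0.521 by edgeR), and turned to 0.06 with limma on log2(TPM + 1) or log2(TPM + 0.1). SPRED3, the remaining family member and not among the 10 genes, fell from 15.1 ± 4.10 to 6.90 ± 1.67 CPM (SD, n = 3 each; log2 fold change -1.12, adjusted p = 0.00736 by edgeR). Of the summed TPM of the 3 SPRED genes, SPRED2 held 77.2 ± 1.40% in WT cells, against 77.2 ± 1.52% without MLST8. SPRED1 held 11.7 ± 1.37% and 17.6 ± 2.48%, and SPRED3 11.0 ± 2.41% and 5.28 ± 1.34%, so the share of SPRED1 rose above that of SPRED3 without overlap in MLST8-KO libraries.

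**Figure D2:**
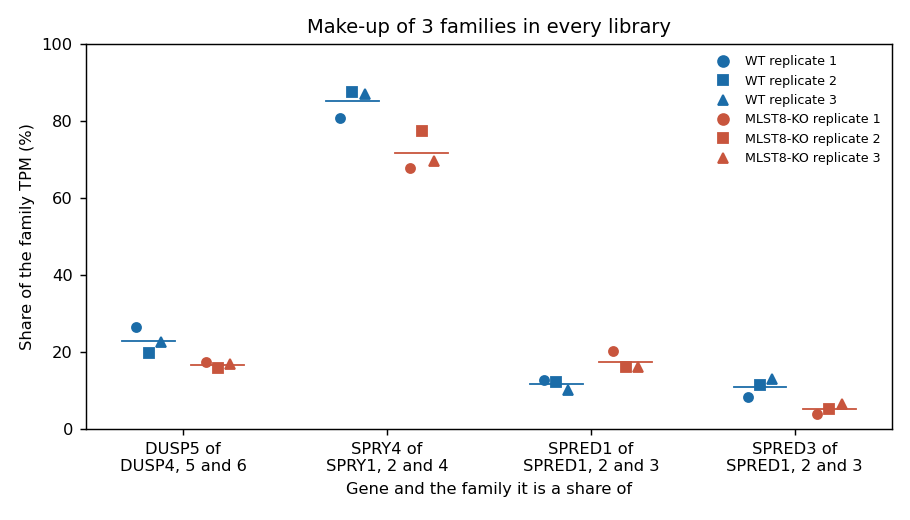
Share (%) that a gene held of the summed TPM of its family in the 3 WT libraries (blue) and the 3 MLST8-KO libraries (red), with bars at the group means. The SPRY4 share was at or above 80.7% in WT and at or below 77.5% in MLST8-KO libraries, and the SPRED1 and SPRED3 shares moved in opposite directions.

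ETV4 (Entrez gene 2118; chromosome 17, 43527844 to 43579620, minus strand) and ETV5 (Entrez gene 2119; chromosome 3, 186046308 to 186110318, minus strand) encode PEA3 transcription factors. ETV4 stood at 73.4, 89.2 and 77.8 CPM in WT libraries, with 75.7, 77.8 and 80.4 CPM in MLST8-KO libraries, and the groups overlapped. Its log2 fold change was -0.04 (95% interval -0.24 to 0.16, adjusted p = 0.758 by edgeR), and turned positive with upper quartile scaling (0.02), with limma on log2(TPM + 1) or log2(TPM + 0.1) (0.11 each), and without WT replicate 2 (0.04). ETV5 stood at 45.6, 59.1 and 62.9 CPM in WT libraries, with 44.9, 51.7 and 47.6 CPM in MLST8-KO libraries. As for DUSP6, WT replicate 1 lay among the MLST8-KO libraries and the other WT libraries above them. The log2 fold change of ETV5 was -0.22 (95% interval -0.48 to 0.05, adjusted p = 0.185 by edgeR), and -0.34 (adjusted p = 0.0123 by edgeR) without WT replicate 1. Without any other library the adjusted p by edgeR lay between 0.187 and 0.441.

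In the annotation ETV4 lies within DHX8 on the opposite strand (782 to 1213 counts) and part of ETV5 overlaps DGKG on the same strand (369 to 957 counts). Both of those neighbours were higher in MLST8-KO cells (log2 fold change 0.34 for DHX8 and 0.59 for DGKG, adjusted p = 0.0118 and 0.0169 by edgeR). Strand cannot tell apart reads from the part that ETV5 shares with DGKG. It could for ETV4 and DHX8, but whether counting used strand is not given in the sources used here. The overlaps named here are of whole gene spans, and whether exons overlap was not examined. Where they do, reads from the shared parts may have been assigned to either gene. How far this affects the ETV4 and ETV5 values was not tested. Antisense transcripts also overlap SPRY4, DUSP6 and ETV5 in the annotation, and were not analysed here.

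WT libraries differed among themselves in several of the 10 genes. WT replicate 1 was the lowest WT library in 7 of them and the highest in 0, where it was lowest in 37.9% and highest in 38.3% of all genes tested. WT replicate 3 was the highest WT library in 6 of the 10 genes and the lowest in 2, where it was highest in 39.5% and lowest in 39.2% of all genes tested. On the log2 CPM scale WT replicate 1 lay below the WT mean by the most for DUSP4 (-0.64), SPRY4 (-0.48), DUSP6 (-0.37) and ETV5 (-0.28), and close to it for SPRED1 (0.04) and SPRY2 (-0.03). The same library had the highest sum of epithelial and squamous markers of the WT libraries, at 22047 CPM against 17462 and 14969 CPM, and the part of this in the result was not tested. Left without WT replicate 1, 5 of the 10 genes were lower (DUSP4, DUSP5, DUSP6, SPRY4 and ETV5; 20.2% of all genes tested in that fit) and 1 was higher (SPRED1; 20.5%). WT replicate 1 was the lowest WT library for each of these lower genes. The fit without it was therefore bound to show larger falls and is no separate support for them. MLST8-KO replicate 1, the library with the liver transcripts, was the lowest MLST8-KO library in 5 and the highest in 4 of the 10 genes, and the lowest in 30.6% and the highest in 28.7% of all genes tested. Without it DUSP5 was at -0.93, SPRY4 at -0.81 and SPRED1 at 0.44 on the log2 fold change scale, all past the threshold.

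**Figure D3:**
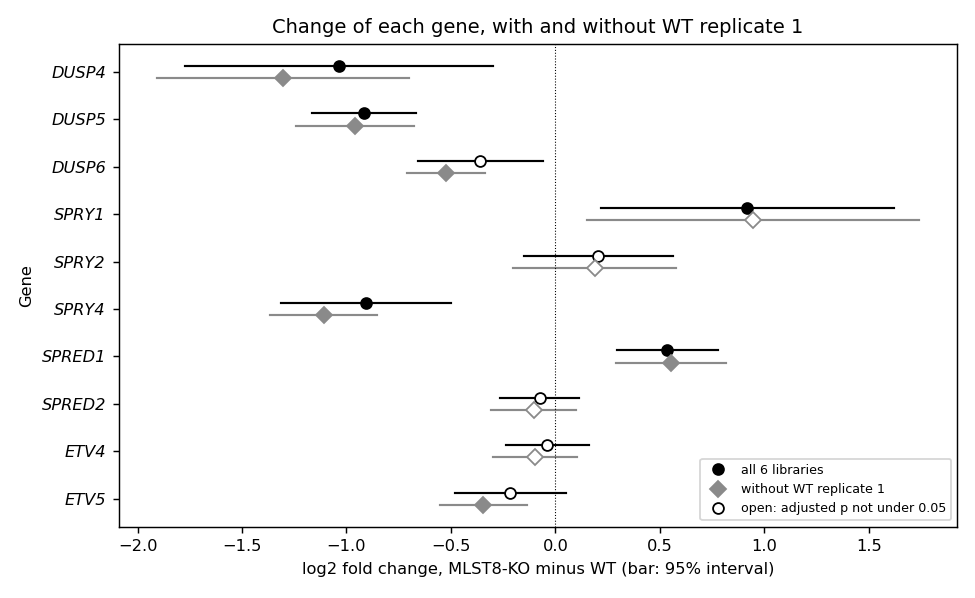
Log2 fold change (MLST8-KO minus WT) of each gene with its 95% interval, from all 6 libraries (black circles) and without WT replicate 1 (grey diamonds). Filled marks have an edgeR adjusted p under 0.05. DUSP5 and SPRY4 lay below 0 and SPRED1 above 0 in both fits. DUSP6 and ETV5 passed the threshold without WT replicate 1, their lowest WT library, at -0.52 and -0.34. Neither passed in the fits, not drawn, that left out any other library.

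The other MAP kinase phosphatases, a list of 8 genes chosen with earlier results of these data known, had 3 lower genes, 1 higher and 4 that did not pass. The counts of this and the following lists stand beside 15.7% lower and 16.3% higher among all genes tested. DUSP7, a cytoplasmic ERK phosphatase like DUSP6, fell from 578 ± 53.2 to 340 ± 34.5 CPM (SD, n = 3 each; log2 fold change -0.76, adjusted p = 0.00281 by edgeR). At 333 TPM in WT cells it was more abundant than any of the 10 genes. DUSP1, which acts on several MAP kinases, was also lower (-0.58, adjusted p = 0.00711 by edgeR), and both calls held with any 1 library left out. DUSP2 was lower (-0.43) and DUSP14 higher (0.43), but these calls were lost in 3 and 5 of the 6 fits that left out 1 library, with adjusted p up to 0.0927 and 0.146 by edgeR. For DUSP2 the libraries were WT replicate 2 and MLST8-KO replicates 1 and 2, and for DUSP14 all but WT replicate 1.

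Among 12 other feedback and RAS-inhibiting genes, 2 were lower and 2 higher, shares near those over all genes tested. ERRFI1, an inhibitor of the EGF receptor that is itself induced by its signals, fell from 89.6 ± 16.8 to 51.3 ± 8.19 CPM (SD, n = 3 each; log2 fold change -0.81, adjusted p = 0.00545 by edgeR). SPRED3, described above, was the other. DAB2IP, a RAS GTPase-activating protein, rose (0.71, adjusted p = 0.00342 by edgeR), and these 3 calls held with any 1 library left out. CBLB, a ubiquitin ligase for receptors, was higher (0.44, adjusted p = 0.0180 by edgeR), but not without WT replicate 2 (0.0835) or MLST8-KO replicate 2 (0.0755).

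In the cascade itself, 5 of 23 genes were lower, 3 higher and 15 did not pass, shares near those over all genes tested. Both MEK genes were lower: MAP2K1 fell from 58.4 ± 9.80 to 41.4 ± 1.42 CPM (SD, n = 3 each; -0.49 on the log2 scale, adjusted p = 0.0114 by edgeR) and MAP2K2 from 219 ± 18.7 to 157 ± 18.7 CPM (-0.49, adjusted p = 0.00795 by edgeR). Without MLST8-KO replicate 1 the adjusted p of MAP2K1 was 0.0539 by edgeR. The kinase genes ARAF, BRAF and MAPK3 did not pass the threshold, with log2 fold changes of 0.13, -0.05 and -0.14. The value for BRAF turned to 0.01 with upper quartile scaling and 0.02 with limma on log2(TPM + 1) or log2(TPM + 0.1). MRAS, a RAS relative that joins the SHOC2 phosphatase complex, was higher (0.92, adjusted p = 0.00401 by edgeR), and FRS2, the docking adaptor of FGF receptors, was lower (-0.52, adjusted p = 0.00810 by edgeR). The adaptors GAB1 (0.74) and GRB2 (-0.31) passed as well, but GAB1 not without MLST8-KO replicate 2 (adjusted p = 0.0540 by edgeR), and GRB2 not without WT replicate 2 (0.0667) or MLST8-KO replicates 1 (0.0801) or 2 (0.0780), nor with limma on log2(TPM + 1) (0.0845) or log2(TPM + 0.1) (0.0864).

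Of 17 ETS factors and ETS-site repressors tested, 2 were higher, 4 lower and 11 did not pass. CIC rose from 48.3 ± 1.25 to 66.3 ± 5.70 CPM (SD, n = 3 each; log2 fold change 0.46, adjusted p = 0.00562 by edgeR), and the call held with any 1 library left out. ATXN1L, the partner that stabilizes CIC protein, was lower (-0.34, adjusted p = 0.0147 by edgeR), but not without WT replicate 2 (0.0665) or MLST8-KO replicate 1 (0.0636), nor with limma (0.111 and 0.108 with pseudocounts of 1 and 0.1). ERF, an ETS repressor that ERK exports from the nucleus, was higher (0.37, adjusted p = 0.0181 by edgeR), though not without WT replicate 2 (0.0688), MLST8-KO replicate 1 (0.0606) or 3 (0.0659). ETS1 (-1.39, adjusted p = 0.0101 by edgeR) was scarce, at 5.79 ± 2.34 CPM in WT cells, and lost its call without MLST8-KO replicate 2 (0.0501). ETS2 (-0.36) lost its call without MLST8-KO replicate 1 (adjusted p = 0.0665 by edgeR) and ETV3 (-0.44) without any 1 library but WT replicate 1 (up to 0.0933). Both also lost it with limma on log2(TPM + 1) and log2(TPM + 0.1), at 0.0677 and 0.0680 for ETS2 and 0.0897 and 0.0870 for ETV3.

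Other transcriptional readouts of ERK numbered 9 lower, 3 higher and 7 that did not pass among 19 tested, with a median log2 fold change of -0.31. The 7 that did not pass were EGR1 (-0.65), FOS (-0.31), MYC (-0.24), BCL2L11 (-0.17), LIF (-0.09), CCND1 (0.30) and MMP10 (0.37). Unlike genes that ERK induces, BCL2L11 is known to be lowered by ERK, so the median mixes both kinds. The largest falls were in the cytokine gene IL1A (-1.23, adjusted p = 0.00369 by edgeR), the AP-1 subunit gene FOSL1 (-1.08, 0.00306) and the chromatin protein gene HMGA2 (-1.07, 0.00281). FOSL1 stood at 261, 337 and 356 CPM in WT libraries, but at 119, 147 and 185 CPM in MLST8-KO libraries. PHLDA1, which is often scored together with DUSP6 and SPRY4 as a readout, fell from 245 ± 48.1 to 138 ± 17.7 CPM (-0.83, adjusted p = 0.00412 by edgeR). EPHA4, a receptor tyrosine kinase, rose (0.98, adjusted p = 0.00408 by edgeR), and these 5 calls held with any 1 library left out. MMP1, a collagenase, rose too (0.76, adjusted p = 0.0107 by edgeR), but not without MLST8-KO replicate 2 (0.0517). WT replicate 1 was the lowest WT library in 10 of the 19 genes, and in 37.9% of all genes tested.

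Upstream of the cascade, the 8 receptor genes EGFR, ERBB2, ERBB3, FGFR1 to FGFR4 and MET held 5 higher and 0 lower ones by edgeR, and 4 higher and 0 lower by DESeq2. At an unadjusted p under 0.05 edgeR had 5 higher and 1 lower, ERBB3 (log2 fold change -0.22). ERBB2 rose from 33.6 ± 1.99 to 56.9 ± 4.24 CPM (SD, n = 3 each; log2 fold change 0.76, adjusted p = 0.00281 by edgeR) and FGFR1 from 13.6 ± 2.62 to 24.4 ± 2.05 CPM (0.84, adjusted p = 0.00412 by edgeR), and both held with any 1 library left out. FGFR2 (0.66) lost its call without MLST8-KO replicate 3 (adjusted p = 0.0512 by edgeR). FGFR3 (0.58) lost it without WT replicate 2 (0.0553) or 3 (0.0613) or MLST8-KO replicate 1 (0.0832) or 2 (0.0706). MET (0.26) kept its call only without WT replicate 1, with an adjusted p of up to 0.163 by edgeR in the other fits that left out 1 library, and DESeq2 gave 0.0557. WT replicate 3, which had the lowest sum of epithelial and squamous markers, was the lowest WT library in 6 of the 8 receptor genes. Over all genes tested it was the lowest in 39.2%. Examples were FGFR1 at 15.8, 14.3 and 10.7 CPM and FGFR2 at 13.001, 11.8 and 8.22 CPM in WT libraries. Left without WT replicate 3, the list held 3 higher genes by edgeR, and likewise 3 without WT replicate 2 or any 1 MLST8-KO library. The part of the markers in this was not tested. EGFR was at 234 CPM in WT and 233 CPM in MLST8-KO cells (log2 fold change -0.01).

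**Figure D4:**
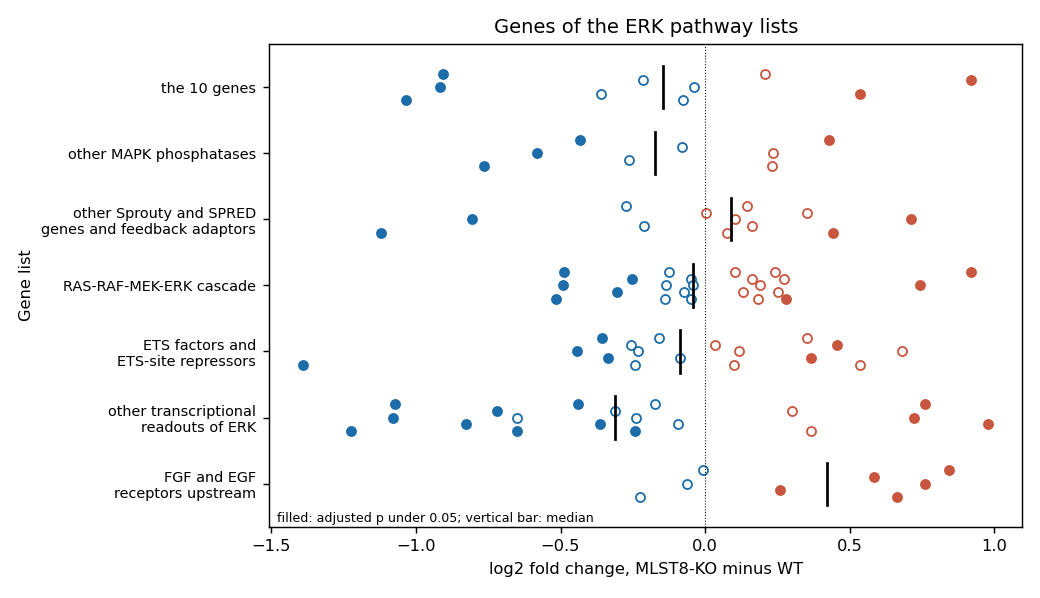
Log2 fold change (MLST8-KO minus WT) of each gene tested in the 10-gene set and in 6 lists of the pathway, with red points above 0 and blue points below 0. Filled points have an edgeR adjusted p under 0.05 and vertical bars are medians. Lower genes were most numerous among the other transcriptional readouts of ERK (9 of 19), and the receptors held 5 higher and 0 lower genes.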

How the data were processed

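PolyA-selected RNA of HCC2814 cells (3 WT and 3 MLST8-KO samples) was sequenced on the DNBSEQ platform. Per the study's methods and the submitters' processing notes, the authors removed low-quality, adapter and ambiguous reads and aligned the rest to GRCh38.p12 with HISAT and to reference genes with Bowtie2. Versions, the quantifier and the use of strand are not given in the sources used here, and the labels and the methods name different RNA kits. The deposited values are estimated counts per gene (12.4% of them not whole), and TPM and FPKM values that the authors scaled by gene length and depth. FPKM values were not analysed, nor was the deposited table of the authors' own comparison, which holds fold changes and q-values.

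Estimated counts were rounded, and edgeR 4.0.16 (R 4.3.3; filterByExpr, TMM, quasi-likelihood test) compared 3 MLST8-KO with 3 WT samples, with Benjamini-Hochberg adjustment over 12951 genes and a threshold of 0.05. CPM values use TMM-scaled library sizes. Totals were 14381673 to 15744154 counts, and the limit of a count of 0 was taken as 3 counts. Alternatives were DESeq2 1.42.0, other scalings and filters (no filter, or at least 10 counts in every sample), limma 3.58.1 on log2(TPM + 1) and log2(TPM + 0.1), the replicate number as a block, and each sample left out. Simulated data for this comparison held 12951 genes, 200 of them changed by 1 on the log2 scale. Of those 200, 85.5% were recovered in their true direction. Unchanged genes made up 8.56% of what was called, which is above the threshold of 0.05. In the data 4146 genes were called and most of the 10 genes changed by less than 1, so these rates may not carry over.

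Coordinates are from GENCODE 29 and promoter windows from RefSeq (GRCh38.p14). The members and lists were chosen with earlier results of these data known. Besides the members, MLST8, ARAF, BRAF, MAP2K1, MAP2K2, MAPK3 and CIC were named whatever their result, and up to 6 genes past the threshold per list by size of change. ERBB3, EGFR, CDH1, KRT5, KRT8, KRT18, PTPRC, CD68, CDH5, VWF, PDGFRB, COL1A1, DHX8 and DGKG were named after their values were seen. So were BCL2L11, CCND1, EGR1, FOS, LIF, MMP10 and MYC, which did not pass the threshold. ERG and EGR3 were listed but did not pass the filter, and FLI1 was not analysed here. Some items that the rule covers are not reported here.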

Additional observations from a re-analysis of the deposited data

How the results depend on the processing

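The directions of DUSP4, DUSP5, DUSP6, SPRY1, SPRY2, SPRY4, SPRED1 and ETV5 held under all 14 alternatives run. The direction of SPRED2 turned with limma (0.0615 with log2(TPM + 1), 0.0628 with log2(TPM + 0.1)), that of ETV4 with upper quartile scaling (0.0154), limma (0.11 with either pseudocount) and without WT replicate 2 (0.0399, in a range from -0.0991 with 1 library left out), and that of BRAF with upper quartile scaling (0.00751) and limma (0.0171 with log2(TPM + 1), 0.0184 with log2(TPM + 0.1)). The cause was not tested. Of the 10 genes, 2 were higher, but 1 with DESeq2, 1 without the filter on low counts, 1 with the replicate block and 1 to 1 with 1 library left out, in each case because SPRY1 did not pass. The number of lower ones was 3, but 4 with DESeq2, where DUSP6 passed too, and 2 with limma at either pseudocount. It was 2 to 5 with 1 library left out (5 without WT replicate 1). DUSP4 also lost its call with the replicate block (adjusted p = 0.0567 by edgeR) and with limma (0.0822 and 0.0875). Over all genes, 2116 were higher (971 to 2692 with 1 library left out: 971 without WT replicate 2, 979 and 1136 without MLST8-KO replicates 1 and 2). A total of 2030 were lower (850 to 2651: 1044 without WT replicate 2, 850 and 1091 without MLST8-KO replicates 1 and 2), and 1134 and 1132 with limma. Genes of the 6 pathway lists numbered 16 higher (8 to 21: 9 without WT replicate 2, 8 without MLST8-KO replicate 2) and 23 lower (12 to 27: 15 without WT replicate 2, 12 and 14 without MLST8-KO replicates 1 and 2). These fits had fewer samples. Higher genes made up 51% of all calls, but 62% with upper quartile scaling, which moved the median of all genes to 0.059, and 71% and 70.9% with limma, which moved it to 0.0923 and 0.104. With limma GRB2, ETS2, ETV3, ATXN1L and MET did not pass. Same-numbered samples deviated together with r = 0.105, 0.0565 and 0.14 across 12951 genes, so the numbers were not taken to pair the samples, although each correlated best with its own number. With the replicate block 2261 genes were higher and 2157 lower, DUSP6 passed (-0.34, adjusted p = 0.0360 by edgeR) and SPRY1 did not (0.90, 0.0673). DUSP4 and SPRY1 had 11 to 73 counts per library, the fewest of the 10 genes.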
